A study of Oryza sativa with 12 samples.

Results

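Of 1485 long non-coding RNAs (lncRNAs) listed for rice (Oryza sativa) leaves, 75 were the sole listed transcript of their locus, reached a set level in both cultivars, and had close mean levels in control and cold leaves of each cultivar. These steady lncRNAs were chosen by 3 conditions: a locus identifier that occurs once in the tables, a mean of at least 1 FPKM over the 6 libraries of each cultivar, and a difference between log2(mean cold FPKM + 0.1) and log2(mean control FPKM + 0.1) of less than 0.4 in both cultivars. FPKM counts sequenced fragments per unit of transcript length, relative to all fragments mapped in that library. The measured cold differences therefore chose the members, and they are given below as a description with no test. The difference between the cultivars averaged over the treatments entered the choice through the minimum level in each, and was tested. The choice also bears on the spread between replicates, which sets the error of that test. The cultivar difference within control or cold leaves rests on the same group means as the cold differences, whose size the choice limits, so it was partly fixed by the choice.

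The 12 libraries came from leaves at the booting stage of the cultivars Kongyu131 and Dongnong422, with 3 libraries for each of 4 groups: Kongyu131 control, Kongyu131 cold, Dongnong422 control and Dongnong422 cold. Plants grew in a natural environment, per the labels. Cold leaves were from plants then held in an incubator at 17 °C for 13 days, with daily light of 16 h and a night of 8 h. That treatment text stands on the control libraries too, so what the controls experienced is not stated apart from the word control, and the labels name no transgene or mutation. One leaf was taken from each bucket, and no label says that the libraries of a group came from separate plants, so p-values measure the spread between these libraries, which may be technical.

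Long intergenic non-coding RNAs (lincRNAs) lie between protein-coding genes, and antisense lncRNAs are made from the DNA strand opposite to another gene. LncRNAs as a group are known for low levels and for tissue- and condition-dependent transcription, and some antisense RNAs of plants act on the gene they overlap, as the cold-induced antisense RNAs of the flowering repressor FLC do in Arabidopsis. RNAs whose level holds between conditions serve as references against which changes are measured. The tables gave no gene symbol, position or sequence, and 0 of 2524 transcript and locus identifiers matched the supplied table of rice genes. The members are therefore named by identifier and locus, no role can be given to any of them, and the leaf tissue was not checked against marker genes.

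Between 1361 and 1414 of the 1485 transcripts were above 0 in a library. The median member stood at 2.77 to 3.91 FPKM in a library, and 67 to 73 of the 75 were at 1 FPKM or more. The files hold no read numbers, and the depth of the libraries is unknown. A level here is RNA per library of bulk leaf, in which fewer cells of a type and less RNA per cell cannot be told apart.

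Among the 828 loci listed with a single transcript, 349 lncRNAs passed the minimum level in both cultivars. Of these 349, 138 (39.5%) had a cold difference within 0.4 in Kongyu131 and 147 (42.1%) in Dongnong422. The 75 that met the condition in both cultivars were 21.5% of the 349, another 63 met it in Kongyu131 alone, 72 in Dongnong422 alone and 139 in neither. Cold differences of the 349 spanned −5.11 to 5.26 in Kongyu131 and −6.26 to 4.76 in Dongnong422, with medians of −0.15 and −0.08. Those of the 75 had medians of −0.04 and 0.03. Their signs were mixed: 15 members were higher in the cold in both cultivars, 17 were lower in both, and 43 moved in opposite directions. Of the 75, 47 stayed within 0.3 in both cultivars, 23 within 0.2 and 4 within 0.1.

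**Figure D1:**
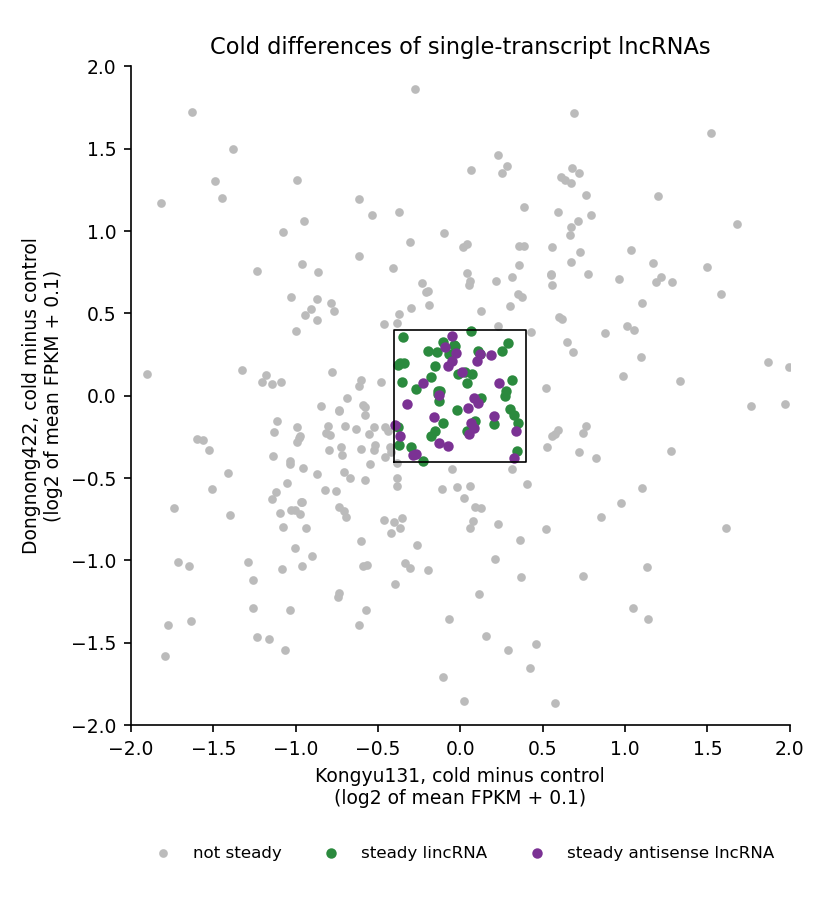
Cold difference of each single-transcript lncRNA at the minimum level, in Kongyu131 (x axis) and Dongnong422 (y axis), as log2(mean cold FPKM + 0.1) minus log2(mean control FPKM + 0.1). The black square marks the limits of 0.4 that hold the 75 steady lncRNAs (green, lincRNA; purple, antisense lncRNA), 328 of the 349 lncRNAs are within the axes, and 21 lie beyond 2 on the log2 scale.

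The smallest cold differences were those of the antisense lncRNA LNC_000014 (XLOC_000756), at 0.05 in Kongyu131 and −0.07 in Dongnong422. Its Kongyu131 values were 42.9, 37.8 and 36.0 FPKM in control leaves and 46.4, 32.1 and 42.0 FPKM in cold leaves. In Dongnong422 it stood at 33.7, 29.5 and 38.2 FPKM in control and at 33.7, 29.3 and 33.3 FPKM in cold libraries. In both cultivars the control and cold libraries overlapped. Next to it stood the lincRNA LNC_000832 (XLOC_031288), at 0.04 and 0.08, whose close means covered a wide spread. In the Dongnong422 cold libraries it was at 6.54, 12.3 and 3.63 FPKM, against 4.28, 9.60 and 7.38 FPKM in control. In Kongyu131 it was at 4.53, 5.90 and 5.68 FPKM in control and 6.88, 4.42 and 5.30 FPKM in cold leaves. The antisense lncRNA LNC_000220 (XLOC_011043; 0.08 and −0.01) and the lincRNA LNC_000225 (XLOC_011377; −0.02 and −0.09) were the others with the smallest differences of their class, at means of 1.18 and 2.08 FPKM over the 12 libraries.

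For each limit, 2 lncRNAs just inside and 2 just outside are given, with no test. On the inner side of 0.4 were the lincRNA LNC_001008 (XLOC_037412; −0.23 in Kongyu131 and −0.40 in Dongnong422) and the antisense lncRNA LNC_000720 (XLOC_027179; −0.40 and −0.18). On the outer side were the lincRNAs LNC_001069 (−0.38 and −0.41) and LNC_000991 (−0.42 and −0.34). At the minimum level, the antisense lncRNA LNC_000596 (XLOC_022442; lower cultivar mean 1.00 FPKM) and the lincRNA LNC_000131 (XLOC_006486; 1.02 FPKM) passed. The lincRNA LNC_000853 (0.952 FPKM) and the antisense lncRNA LNC_000429 (0.874 FPKM) did not. A fitted cold difference had a median standard error of 0.31 over the members in limma, on the log2(FPKM + 0.1) scale, so the limit of 0.4 is close to the error of a single estimate. In 17 members the standard error was over 0.4, and the highest was 1.84. A steady member is therefore not shown to be unaffected by cold.

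Close means did not always come with overlapping libraries. The control and cold libraries of Kongyu131 did not overlap for 2 members, against 24.6% of 1441 lncRNAs tested and 35.8% of the 349 at the minimum level. In Dongnong422 they did not overlap for 5 members, against 29.6% and 34.1%. Since the choice of members used this contrast, nothing is read from these counts. The lincRNA LNC_000758 (XLOC_028571) was at 22.8, 22.5 and 21.9 FPKM in Dongnong422 control and at 28.1, 25.4 and 30.9 FPKM in cold leaves. The antisense lncRNA LNC_001130 (XLOC_043508) was at 4.73, 4.57 and 4.85 FPKM in Dongnong422 control and 5.60, 5.11 and 5.75 FPKM in cold leaves. For both, each cold library stood above each control library. In Kongyu131 the lincRNA LNC_000053 (XLOC_003097) was at 4.37, 4.49 and 4.17 FPKM in control and 3.77, 3.10 and 3.89 FPKM in cold leaves, with no overlap. The other non-overlapping members were the lincRNA LNC_000786 in Kongyu131, and the antisense lncRNAs LNC_000075 and LNC_000560 and the lincRNA LNC_000152 in Dongnong422. LNC_000758, LNC_001130, LNC_000786, LNC_000075 and LNC_000560 were chosen after their values were seen.

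By class, 46 of the 75 members were lincRNAs and 29 antisense lncRNAs. LincRNAs made up 61.3% of the members (95% Wilson interval 50.0% to 71.5%), 68.2% (63.1% to 72.9%) of the 349 lncRNAs at the minimum level and 61.8% of the 828 with a single transcript. These intervals cover counting error only. Of the 238 lincRNAs at the minimum level 19.3% were steady, and of the 111 antisense lncRNAs 26.1% were. The class shares were not tested, and the intervals of the members and of the 349 overlap.

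Levels spanned more than 4 orders of magnitude, from a mean of 1.08 FPKM over the 12 libraries to 24026 FPKM. The middle of the members lay low, with a median of 3.32 FPKM and quartiles of 1.64 and 11.8 FPKM, against 3.00 FPKM (1.67 and 7.67 FPKM) for the 349. Steady lincRNAs had a higher median, 3.67 FPKM, than steady antisense lncRNAs, at 1.71 FPKM, as was the case for the 274 others at the minimum level (3.56 and 2.28 FPKM). Under 2 FPKM stood 10 of 46 lincRNAs and 15 of 29 antisense lncRNAs. At 10 FPKM or more stood 14 lincRNAs and 6 antisense lncRNAs. Between 1 and 20 FPKM, 18.4% to 20.8% of the lncRNAs in each range of level were steady, and from 20 FPKM up 34.0% were (16 of 47). These shares by level were not tested.

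**Figure D2:**
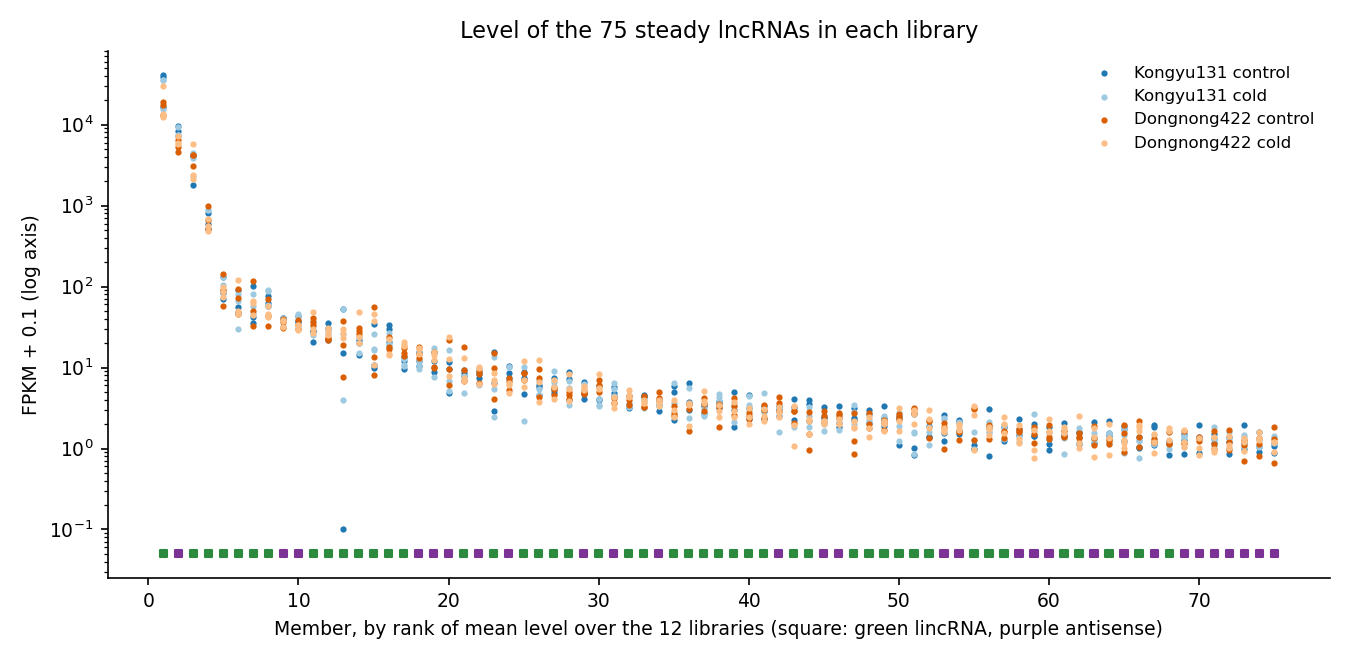
Level of each of the 75 steady lncRNAs in the 12 libraries (FPKM + 0.1, log axis), ranked by mean level, with 1 point per library coloured by group and a square for the class. The first 4 members stand above 480 FPKM in every library, and the member of rank 13, LNC_000733, has a library at 0.

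A few members held nearly all of the FPKM of the set. The 3 with the most FPKM in a library made up 93.5% to 97.8% of the members' sum. The lincRNA LNC_001334 (XLOC_052786) had the highest value of the members in 12 of 12 libraries. It stood at 16560, 41258 and 38323 FPKM in Kongyu131 control and 15592, 35301 and 35688 FPKM in cold leaves. In Dongnong422 it stood at 13002, 19228 and 17261 FPKM in control and 13388, 30321 and 12394 FPKM in cold leaves. In each Kongyu131 group replicate 1 lay far below the other libraries, and in Dongnong422 cold leaves replicate 2 lay far above the others. The lincRNA LNC_000283 (XLOC_012950), of rank 3 by mean level, was low and high in the same libraries. It was at 1777, 4090 and 4210 FPKM in Kongyu131 control and 2310, 4501 and 3895 FPKM in Kongyu131 cold leaves. In Dongnong422 it was at 3071, 4227 and 4206 FPKM in control and 2372, 5820 and 2153 FPKM in cold leaves. The steadiness of these means thus covers libraries that differ by 3.33-fold and 3.27-fold from lowest to highest.

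The lincRNA LNC_000391 (XLOC_015928) and the antisense lncRNA LNC_000037 (XLOC_002219) were the other members above 480 FPKM in every library. LNC_000391 was at 810, 591 and 511 FPKM in Kongyu131 control and 871, 670 and 886 FPKM in cold leaves, and at 517, 997 and 667 FPKM in Dongnong422 control and 553, 482 and 691 FPKM in cold leaves. Its cold differences, 0.34 in Kongyu131 and −0.34 in Dongnong422, were of opposite sign. LNC_000037 was at 7311, 9573 and 8428 FPKM in Kongyu131 control and 9461, 7503 and 7456 FPKM in cold leaves. In Dongnong422 it was at 4567, 6497 and 5287 FPKM in control and 7202, 5749 and 5951 FPKM in cold leaves. All 6 Kongyu131 libraries stood above all 6 Dongnong422 libraries. Next by level among the antisense members were LNC_000486 (XLOC_018541) and LNC_000014, at means of 37.2 and 36.2 FPKM.

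The spread between replicates was narrower for steady lncRNAs than for the others at the minimum level. The SD of log2(FPKM + 0.1) within groups, pooled over the 4 groups, had a median of 0.34 for the 75 members and of 0.50 for the other 274. Between 1 and 2 FPKM the medians were 0.36 and 0.52, between 2 and 5 FPKM 0.31 and 0.43, between 5 and 20 FPKM 0.37 and 0.50, and from 20 FPKM 0.39 and 0.75. Means of noisy lncRNAs are less likely to fall close together, so the choice of members bears on this spread, and the difference was not tested. Steady antisense lncRNAs had a median SD of 0.31 and steady lincRNAs of 0.41. The same order held among the others, at 0.46 and 0.53.

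**Figure D3:**
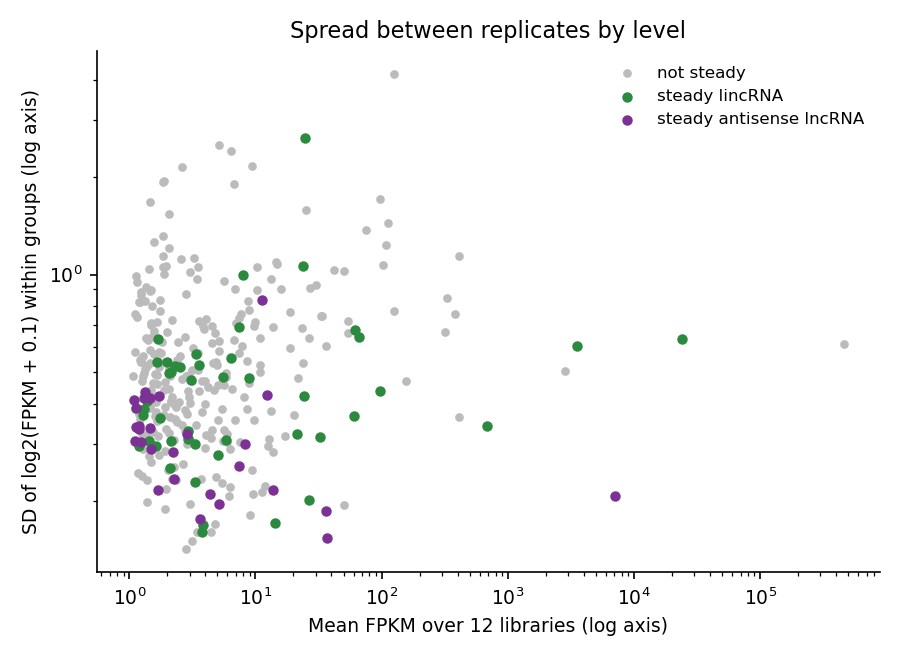
SD of log2(FPKM + 0.1) within groups, pooled over the 4 groups (y, log axis), against mean FPKM over the 12 libraries (x, log axis), for the 349 single-transcript lncRNAs at the minimum level. Steady lncRNAs are green (lincRNA) or purple (antisense lncRNA) and the other 274 grey, and the steady lincRNA at the top is LNC_000733.

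From the lowest to the highest of the 12 libraries the median member varied 2.55-fold and the median of the other 274 lncRNAs 4.82-fold. This range spans control and cold libraries, whose means the choice of members held close, so nothing is read from the comparison. In 11 members all 12 libraries lay within 2-fold, 8 of them antisense lncRNAs, and in another 11 members the range was more than 4-fold, 10 of them lincRNAs. The narrowest was LNC_000486, at 41.2, 41.0 and 39.0 FPKM in Kongyu131 control and 40.7, 32.9 and 37.2 FPKM in cold leaves. In Dongnong422 it was at 36.5, 40.0 and 30.4 FPKM in control and 39.0, 31.2 and 37.2 FPKM in cold leaves, a 1.36-fold range over all 12. The lincRNA LNC_000053 had the next smallest SD (0.16, against 0.15 for LNC_000486) and a 1.45-fold range. At the other end stood the lincRNA LNC_000733 (XLOC_027917), with an SD of 2.65. It was at 52.8, 15.0 and 0 FPKM in Kongyu131 control and 26.0, 3.83 and 53.1 FPKM in cold leaves, so its cold difference of 0.29 joins libraries that share no common level. In Dongnong422 it was at 7.50, 37.7 and 18.8 FPKM in control and 23.3, 29.9 and 26.7 FPKM in cold leaves. An exact 0 can be a failed estimate. The lincRNA LNC_000965 (XLOC_035549), with an SD of 1.06, ranged from 8.04 to 56.5 FPKM, both within the Dongnong422 control libraries.

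Some libraries stood apart across the members. Of the 75 members, 20 had their highest value in Kongyu131 control replicate 1 and 14 in Dongnong422 cold replicate 2, against 1 to 8 in each other library. The median member stood 0.26 on the log2 scale above its mean over the 12 libraries in Kongyu131 control replicate 1, and the median of the 349 stood 0.34 above. That library had the largest median-ratio scaling factor, 1.22, and Dongnong422 cold replicate 2 had a factor of 0.893.

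Membership depended on the scaling and on single libraries. With median-ratio scaling 67 lncRNAs met the conditions, of which 49 were among the 75, and with quantile normalization 72 did, of which 52 were. Leaving out each library in turn gave 57 to 78 lncRNAs, of which 54 to 72 were among the 75. The lowest number came without Kongyu131 cold replicate 3. In all 12 of these repeats 23 of the 75 met the conditions, and 36 met them under both scalings, with pseudocounts of 1 and 0.01 FPKM and with means of log2 values. Both groups shared 14 members, which are named here after their values were seen. They were 8 antisense lncRNAs (LNC_000037, LNC_000486, LNC_000014, LNC_000163, LNC_001407, LNC_000560, LNC_000220 and LNC_000562) and 6 lincRNAs (LNC_000139, LNC_000053, LNC_000923, LNC_001056, LNC_000225 and LNC_000290). Their mean levels ran from 1.13 FPKM for LNC_000562 to 7082 FPKM for LNC_000037, and their SD within groups from 0.15 to 0.50. Among the 14, the control and cold libraries did not overlap for LNC_000053 in Kongyu131 and for LNC_000560 in Dongnong422. LNC_001334 and LNC_000283, the most abundant steady lincRNAs, were not among the 14. Neither were LNC_000152, LNC_000776 and LNC_000944, the members called below for a difference between the cultivars averaged over the treatments.

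Averaged over the treatments, 3 of 75 steady lncRNAs were called for a difference between the cultivars, against 17.9% of all 1441 lncRNAs tested and 5.73% of the 349 at the minimum level. The share among the members, 4%, was near that of the 349, of which the members are a part, so it is no result about the members. The median standard error of this difference was 0.22 for the members and 0.26 for the 349, and the choice of members bears on it. A member that was not called is not shown to be alike in the cultivars. The calls came from limma fitted to all 12 libraries and all 1441 lncRNAs, two-sided, at a threshold of 0.05 for the p adjusted by the Benjamini-Hochberg method. At an unadjusted p under 0.05 stood 14 members, beside 394 of all 1441 lncRNAs and 60 of the 349. Of the 3 called, 2 were higher in Dongnong422 (9.37% of all) and 1 in Kongyu131 (8.54% of all). With quantile normalization 11 were called, 1 higher in Dongnong422 and 10 in Kongyu131, against 19.5% of all lncRNAs tested and 11.2% of the 349. The median difference of all lncRNAs then moved from 0.05 to −0.10.

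The lincRNA LNC_000152 (XLOC_007707) was the 1 called member whose cultivars did not overlap. It stood at 13.3, 11.8 and 9.49 FPKM in Kongyu131 control and 10.5, 10.7 and 12.7 FPKM in Kongyu131 cold leaves. In Dongnong422 it stood at 13.9, 17.5 and 15.2 FPKM in control and 18.5, 18.7 and 20.4 FPKM in cold leaves. The cultivar means were 11.4 ± 1.45 and 17.4 ± 2.40 FPKM (SD, n = 6 each), and every Dongnong422 library stood above every Kongyu131 library. The log2 difference was 0.60 (SE 0.15), 1.51-fold, with a limma adjusted p of 0.0127. The call held without any single library (adjusted p from all alternatives 0.00483 to 0.928) and was lost only with quantile normalization, at a log2 difference of 0.02.

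The lincRNA LNC_000776 (XLOC_029179) was named after its values were seen, since its cultivars overlapped. It stood at 2.58, 0.904 and 0.739 FPKM in Kongyu131 control and 0.755, 1.46 and 1.49 FPKM in Kongyu131 cold leaves. In Dongnong422 it stood at 3.08, 2.67 and 3.00 FPKM in control and 2.55, 2.86 and 1.92 FPKM in cold leaves. Kongyu131 control replicate 1 was the library that reached into the Dongnong422 range. The cultivar means were 1.32 ± 0.701 and 2.68 ± 0.423 FPKM (SD, n = 6 each), with a log2 difference of 1.08 (SE 0.30), 2.12-fold, and a limma adjusted p of 0.0239. Each of 6 libraries ended the call when left out: replicates 2 and 3 of Kongyu131 control, replicate 1 of Kongyu131 cold, replicate 1 of Dongnong422 control, and replicates 1 and 2 of Dongnong422 cold (limma adjusted p 0.0503 to 0.0632). Over all alternatives the adjusted p ran from 0.0012 to 0.0632.

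The antisense lncRNA LNC_000944 (XLOC_034698), also named after its values were seen, was higher in Kongyu131. It stood at 10.4, 8.56 and 7.22 FPKM in Kongyu131 control and 10.1, 7.18 and 10.1 FPKM in Kongyu131 cold leaves. In Dongnong422 it stood at 7.22, 5.12 and 6.79 FPKM in control and 6.31, 4.68 and 6.01 FPKM in cold leaves. The cultivars met at the edge of their ranges, with means of 8.92 ± 1.48 and 6.02 ± 0.970 FPKM (SD, n = 6 each). The log2 difference, Dongnong422 minus Kongyu131, was −0.56 (SE 0.17), with a limma adjusted p of 0.0475. The call ended without any of 10 of the 12 libraries, all but Kongyu131 control replicate 3 and Kongyu131 cold replicate 2, with a pseudocount of 1 FPKM and with no variance trend (adjusted p over all alternatives from 0.00168 to 0.112).

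**Figure D4:**
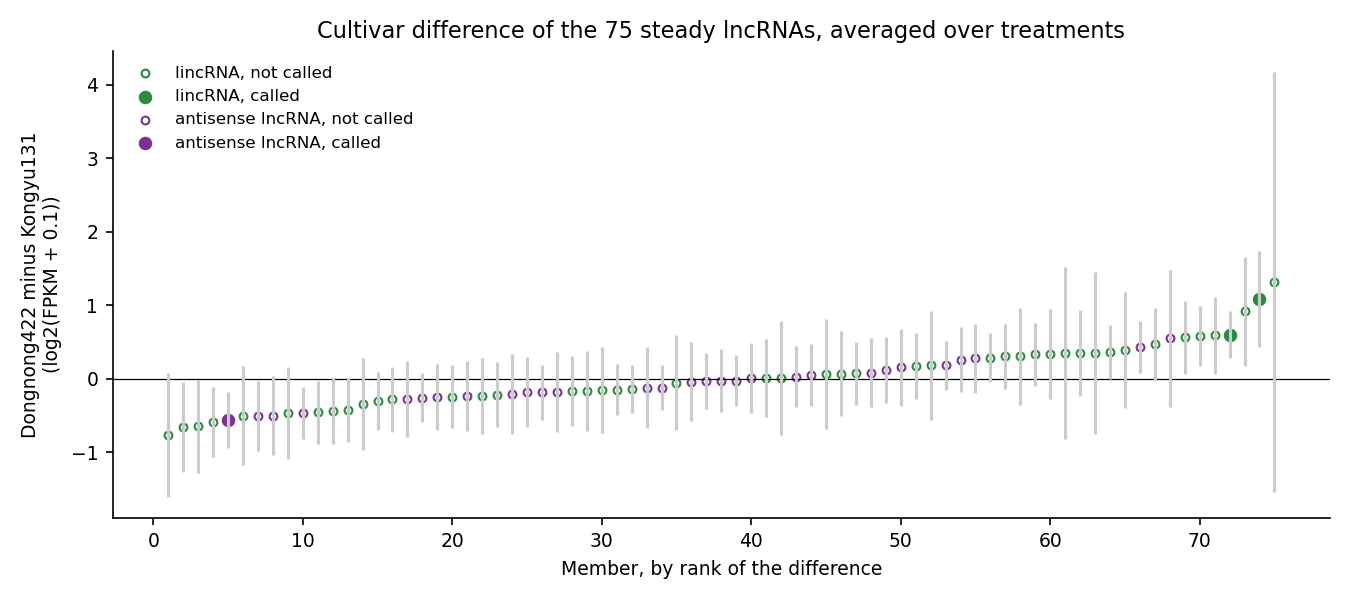
Difference between cultivars for each of the 75 steady lncRNAs, averaged over treatments (Dongnong422 minus Kongyu131, log2(FPKM + 0.1)), ranked, with the 95% interval from limma as a grey line. Filled points are the 3 called members, LNC_000152 and LNC_000776 on the right and LNC_000944 on the left, and the widest interval is that of LNC_000733.

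In control leaves 0 of 75 were called by limma, against 12.4% of all lncRNAs and 2.58% of those at the minimum level. There 3 members had an unadjusted p under 0.05, beside 315 of all 1441 lncRNAs and 40 of the 349. In cold leaves LNC_000152 alone was called, against 17.3% and 9.74%. There 11 members had an unadjusted p under 0.05, beside 408 of all 1441 and 91 of the 349. Nothing is read from these counts against the background, because lncRNAs with a cold difference of 0.4 or more in either cultivar had been left out by the choice. The log2 difference of LNC_000152 in cold leaves was 0.76 (SE 0.21), with a limma adjusted p of 0.0241. In control leaves it was 0.43 (SE 0.21, limma adjusted p = 0.258). The difference between these effects was not tested, because the choice of members used the cold effects. The cold call of LNC_000152 was lost in 9 of 21 alternatives, among them when replicate 1 or 2 of Kongyu131 cold or any of the 3 Dongnong422 cold libraries was left out (limma adjusted p 0.0549 to 0.0871), with the 6 cold libraries alone, with no variance trend and with quantile normalization (adjusted p over all alternatives from 0.00905 to 0.685). The number called in control leaves was 1 without Kongyu131 control replicate 1 and 2 without Dongnong422 control replicate 3. Each of these 2 fits called 11.8% of all lncRNAs tested and 2.58% of the 349 in control leaves.

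The median absolute difference averaged over treatments was 0.28 for the 75 members and 0.32 for the 349, and the estimate was under 0.5 in size on the log2 scale for 59 members. In 59 of the 75 (78.7%) the 95% interval lay within 2-fold in either direction, as it did in 60.2% of the 349, and it did so in 27 of 29 antisense lncRNAs and 32 of 46 lincRNAs. The width of an interval follows the spread between replicates, on which the choice of members bears. The estimate was above 0 in 36 members and below 0 in 39, with a median of −0.03. The estimate nearest 0 was that of the antisense lncRNA LNC_000562 (XLOC_021696), 0.01 (95% interval −0.47 to 0.48), with cultivar means of 1.13 ± 0.264 and 1.13 ± 0.274 FPKM (SD, n = 6 each). Next was the lincRNA LNC_000290 (XLOC_013126), 0.01 (−0.52 to 0.54), at 1.35 ± 0.243 and 1.41 ± 0.542 FPKM.

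Among the abundant members the intervals were of unequal width. For LNC_001334 the cultivar means were 30454 ± 11344 FPKM in Kongyu131 and 17599 ± 6791 FPKM in Dongnong422 (SD, n = 6 each), a log2 difference of −0.76 with a 95% interval of −1.60 to 0.08. For LNC_000283 the difference was 0.06 (−0.69 to 0.82), and for LNC_000391 −0.17 (−0.65 to 0.32). For LNC_000486 it was −0.12 (−0.43 to 0.19) and for LNC_000014 −0.26 (−0.59 to 0.08). Of the members listed here, only LNC_001334 had an interval that reached beyond 2-fold. LNC_000014 and LNC_000486 were called with quantile normalization only, at −0.71 and −0.60.

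The libraries of the cultivars did not overlap for 3 of the 75 members, against 10.5% of all lncRNAs and 2.29% of those at the minimum level. Beside LNC_000152 these were LNC_000037 and the antisense lncRNA LNC_000914 (XLOC_033815), the latter named after its values were seen. LNC_000037 had cultivar means of 8289 ± 1030 and 5876 ± 919 FPKM (SD, n = 6 each), a log2 difference of −0.50 (SE 0.22) and a limma adjusted p of 0.154. LNC_000914 was at 4.75, 4.38 and 5.62 FPKM in Kongyu131 control and 6.32, 4.30 and 5.29 FPKM in cold leaves. In Dongnong422 it was at 4.10, 3.51 and 3.54 FPKM in control and 3.05, 3.54 and 4.24 FPKM in cold leaves. Its difference was −0.46 (SE 0.16, limma adjusted p = 0.0758). Neither difference passed the threshold, which does not show that the cultivars were alike.

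**Figure D5:**
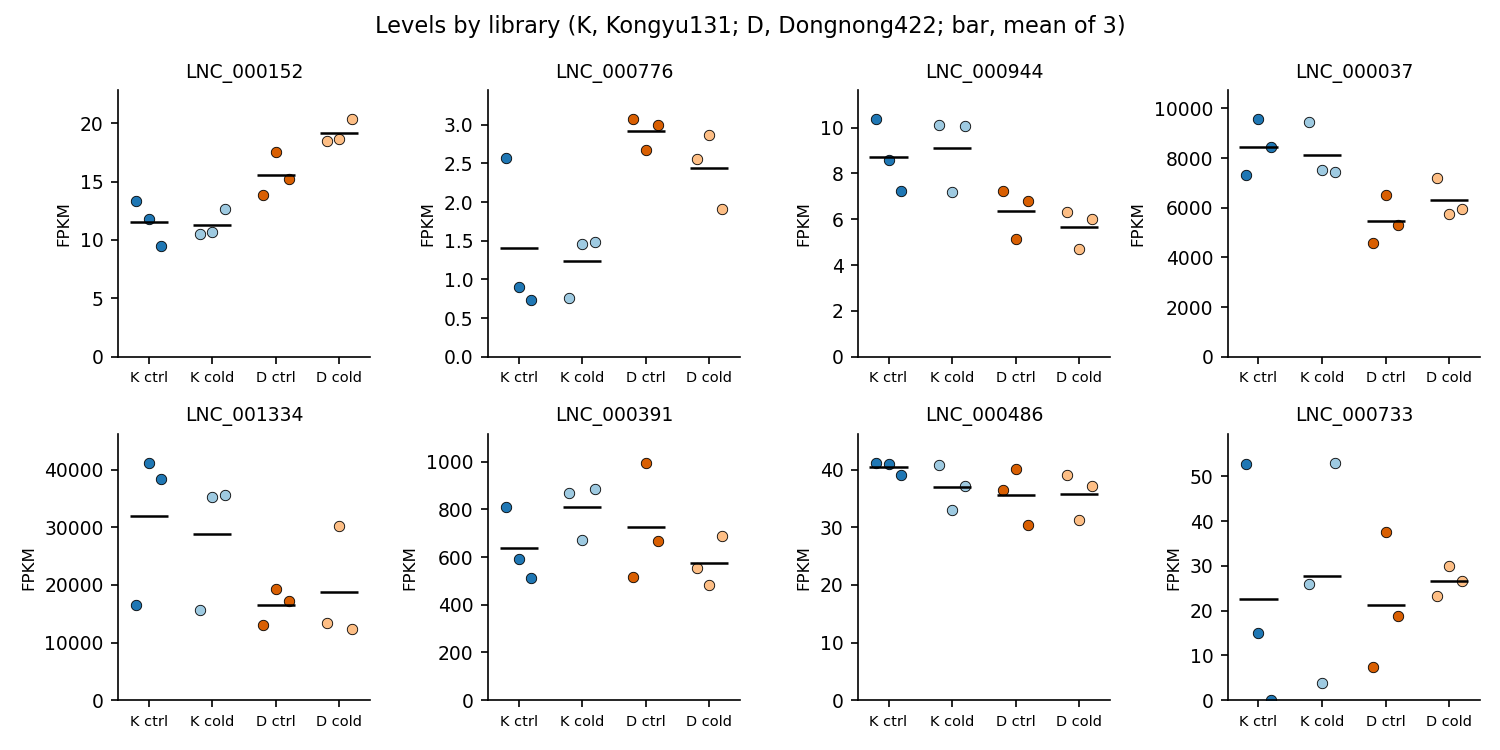
FPKM of 8 steady lncRNAs in each library (points) with the mean of 3 libraries (bar), by cultivar (K, Kongyu131; D, Dongnong422) and treatment, on a linear axis from 0. LNC_000152 and LNC_000776 were higher in Dongnong422, LNC_000944 was higher in Kongyu131, and LNC_001334 and LNC_000733 have close control and cold means over widely spread libraries.

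In 51 of 75 members the highest group mean was less than 1.5 times the lowest and in 73 less than 2 times. The 2 others were LNC_000776 and the lincRNA LNC_001292 (XLOC_051109, named after its values were seen), at ratios of 2.36 and 2.56. The choice held the control and cold means of each cultivar close, so these ratios were partly fixed by it. LNC_001292 was at 0.895, 0.890 and 1.02 FPKM in Kongyu131 control and 1.19, 1.52 and 0.876 FPKM in cold leaves. In Dongnong422 it was at 3.07, 1.18 and 2.93 FPKM in control and 0.857, 3.24 and 2.50 FPKM in cold leaves, so the cultivars overlapped. Its log2 difference between cultivars was 0.92 (SE 0.34, limma adjusted p = 0.0940). Across the 75 members, which are not independent replicates and whose levels span a wide range, the log2 group means of Kongyu131 and Dongnong422 controls had a Pearson r of 0.990 and a Spearman rho of 0.951. Those of the other 274 lncRNAs had 0.942 and 0.884. The choice of members used these group means and bears on the spread between replicates, so nothing is read from this contrast.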

How the data were processed

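Leaf RNA was depleted of ribosomal RNA and made into libraries with a directional kit, per the labels' protocols. The tools named are TopHat2 2.0.9 and Cufflinks 2.1.1, per the submitters' processing notes. Not given in the sources used here: genome build, annotation, classing of lncRNAs and use of strand. The authors deposited FPKM values per library for 1485 transcripts. These are not counts, and without a known use of strand an antisense value may hold reads from the gene it overlaps. FPKM is relative to the library, so a few abundant transcripts can shift all others. The most abundant of the 1485, the lincRNA LNC_000712, is not a member and was named after its values were seen. Its mean was 463758 FPKM over the 12 libraries, with cold differences of 0.06 in Kongyu131 and 0.70 in Dongnong422. Its bearing on the members was not tested.

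The members were found on group means of FPKM. For tests, log2(FPKM + 0.1) of the 1441 transcripts with a mean of at least 0.1 FPKM, which included all 75 members, was fitted with 4 group means over 12 libraries in limma 3.58.1 (R 4.3.3), using moderated variances that follow a trend with level. Adjusted p-values (Benjamini-Hochberg) are over all 1441. The log2 scale with a pseudocount understates differences of low transcripts. The code was tested on simulated data.

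The members, the rule and the lists were chosen with earlier results of these data known. Transcripts were named by rule: per cultivar contrast, up to 2 called members in each direction without overlap of the libraries, the 3 most abundant of each class, the 2 with the smallest cold difference of each class, the 2 with the smallest and the 2 with the largest spread, the 2 with the smallest cultivar difference, and the 2 on each side of a limit. Others are marked as chosen after their values were seen.

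Alternatives were pseudocounts of 1 and 0.01 FPKM, other filters, median-ratio and quantile scaling, a fit with no variance trend, a replicate block, fits on the compared libraries only, other limits, and leaving out each library.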

Additional observations from a re-analysis of the deposited data

How the results depend on the processing

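The number of steady lncRNAs, 75, became 45 with a minimum mean of 2 FPKM and 47 with a limit of 0.3. It stayed between 57 and 99 under the other settings, with 57 to 78 when a library was left out. The share of lincRNAs, 61.3%, ran from 53.6% to 68.9% over all settings, and from 54.9% to 64.1% when a library was left out. With the median cold difference of the 349 removed in each cultivar, a setting added after the data were seen, 72 met the conditions, 60 of them among the 75. The cause of these shifts was not tested, except that stricter limits keep fewer members by construction.

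Members called for the cultivar difference averaged over treatments, 3, became 11 with quantile normalization, and 1 to 4 when a library was left out: 1 without Kongyu131 control replicate 2, Kongyu131 cold replicate 1 or Dongnong422 cold replicate 2. In control leaves, 0 became 3 with quantile normalization and 0 to 2 when a library was left out. In cold leaves, 1 became 2 with a pseudocount of 0.01 FPKM or a mean of at least 1 FPKM, 3 with median-ratio scaling, 5 with quantile normalization, and 0 with no variance trend or only the libraries compared (8 at an unadjusted p under 0.05 in limma for each). Leaving out a library gave 0 to 3 there. In cold leaves 0 were left without replicate 1 or 2 of Kongyu131 cold, or of Dongnong422 cold, (2 to 9 at an unadjusted p under 0.05 in limma), and 3 were called without Kongyu131 control replicate 1. Without Dongnong422 cold replicate 3 the 1 called was not LNC_000152. It was the antisense lncRNA LNC_000267 (XLOC_012673), higher in Kongyu131 and named after its values were seen. The cause was not tested. Of 18 named members not called, 10 changed sign under some setting, and 2 were called, both with quantile normalization.

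The replicate numbers are shared by the groups, but same-numbered libraries of the cultivars did not deviate together (r from −0.04 to 0.08 over 6 pairs), so the numbers were not taken as pairs. With the replicate block 3 members were called on average, 0 in control and 0 in cold leaves (2 and 6 at an unadjusted p under 0.05 in limma), where LNC_000152 had an adjusted p of 0.0546.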
